A study of Homo sapiens with 27 samples.

Results

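The eIF2 kinases, their target and the factor that recharges it were followed as 10 genes at the step where cells slow translation under stress: the kinases EIF2AK1, EIF2AK2, EIF2AK3 and EIF2AK4, the eIF2 alpha subunit EIF2S1, and the 5 eIF2B subunits EIF2B1 to EIF2B5. They were chosen by name from 60534 gene identifiers shared by all libraries. The rule holds no measured value, but earlier results of these data were known when the genes were chosen. The cells were wild-type IMR90, a human fetal lung fibroblast line of finite lifespan, grown in 5 states and profiled by RNA-seq (13 libraries), which measures mRNA, and by Ribo-seq (14 libraries), which sequences the mRNA fragments covered by ribosomes. Cycling cells were at 40 to 60% confluency, and quiescent cells were held by contact inhibition. Irradiated cells received 15 Gy of ionizing radiation and were harvested after 10 days, and etoposide cells, exposed to a topoisomerase II poison, received 50 µM in 3 treatments over 10 days. Both treatments were used to induce senescence. Thapsigargin cells were cycling cells, also at 40 to 60% confluency, given 25 nM of this inhibitor of the endoplasmic reticulum (ER) calcium pump for 3 h. Each state had 3 libraries per assay, except cycling RNA-seq, thapsigargin RNA-seq and thapsigargin Ribo-seq with 2. All lysates were made with cycloheximide, which holds ribosomes on mRNA. No label says that replicates were separate cultures, so p-values measure only the spread between these samples.

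eIF2 is the three-subunit factor that brings the initiator methionyl-tRNA to the ribosome, and it must be reloaded with GTP by eIF2B after each round. Each eIF2 kinase senses a different stress (heme shortage or mitochondrial stress for EIF2AK1, double-stranded RNA for EIF2AK2, unfolded protein in the ER for EIF2AK3, uncharged tRNA or stalled ribosomes for EIF2AK4) and phosphorylates the same serine of eIF2 alpha. Phosphorylated eIF2 holds eIF2B in an inactive state, so general initiation falls while mRNAs with upstream reading frames, such as ATF4, are translated; this is the integrated stress response (ISR). Kinase activity and phosphorylation are not seen by either assay used here.

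Library depth was 20608930 to 57037578 gene counts in RNA-seq and 1934420 to 19978464 in Ribo-seq. The thapsigargin libraries stood apart: 1.35 to 1.40% of their RNA-seq reads were unmapped against 27.8 to 40.6% in the other 11, and 65.2 to 66.9% of their Ribo-seq reads mapped to several places against 19.8 to 31.9% in the other 12. Their Ribo-seq files list 62703 gene identifiers against 60664 in the other 12, and only identifiers in both lists were used. The medium of the thapsigargin cells also had no antibiotics, so treatment and library origin cannot be told apart in any thapsigargin comparison below. MKI67 and LMNB1, proliferation and nuclear lamina genes, fell and CDKN1A, the cell cycle inhibitor p21, rose in both senescent states in both assays. CDKN2A, the inhibitor p16, rose after irradiation in RNA-seq, from 14.2 and 14.5 to 26.0, 27.6 and 22.3 CPM (a gene's counts scaled to a common library total), and in Ribo-seq; with etoposide it rose in Ribo-seq and did not pass in RNA-seq. Quiescent cells shared these changes in Ribo-seq: MKI67 (-1.14 on the log2 scale) and LMNB1 (-1.05) fell, and CDKN1A and CDKN2A (1.03) rose. In quiescent RNA-seq LMNB1 fell, CDKN2A rose, and MKI67 and CDKN1A did not pass. With thapsigargin LMNB1 fell in both assays and CDKN1A rose in Ribo-seq. In senescent against quiescent cells MKI67 and LMNB1 were lower and CDKN1A was higher in both assays, and CDKN2A did not pass. In RNA-seq, quiescent replicate 2 had MKI67 at 148 CPM. Cycling cells had 144 and 167, and the other quiescent libraries had 41.3 and 53.4. All 8 fibroblast markers were measured, with summed levels of 8873 to 14322 CPM in RNA-seq, and the 5 immune markers summed to at most 1.21 CPM. In Ribo-seq the fibroblast sum was 12393 to 12946 CPM with thapsigargin and 35488 to 37193 in cycling cells. It was 17342.5 to 36953.5 CPM in quiescent cells, 22402 to 24679 after irradiation and 29608 to 31810.5 with etoposide. With thapsigargin 7 of the 8 markers fell in Ribo-seq (44.4% of all genes were called, median -2.23, all genes -0.11), and 5 of 8 fell in RNA-seq (24.5%). COL3A1 footprints fell by 4.35 and COL1A2 footprints fell by 3.86 on the log2 scale with thapsigargin. After irradiation 4 markers fell and 2 rose in Ribo-seq (39.8%). Of the epithelial markers, KRT19 carried the signal and KRT5 and SFTPC were at 0 in cycling and thapsigargin RNA-seq; the summed RNA-seq level was 89.7 to 97.1 CPM with thapsigargin, 16.0 to 22.3 in cycling cells and 2.52 to 3.40 with etoposide. Endothelial markers, led by TEK, summed in RNA-seq to 57.3 to 90.2 CPM with etoposide, 18.2 to 24.4 in cycling cells and 4.97 to 5.32 with thapsigargin. PECAM1 and CDH5 were at 0 in cycling and thapsigargin RNA-seq. With etoposide no endothelial or immune marker was at 0. There VWF was higher by 1.33 (adjusted p 0.0398 by edgeR) and the immune marker PTPRC by 3.44 (0.00851). The immune sum was 1.06 to 1.21 CPM with etoposide and at most 0.146 in cycling cells. The part of these markers in any result was not tested.

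The stretch upstream of the transcription start was read for 9 of the 10 genes from RefSeq (GRCh38.p14; 250 bases before and 50 after the start), EIF2AK1 being the one without an entry. It is shown for EIF2AK2 and EIF2AK3, the kinases whose mRNA changed in the comparisons below. The EIF2AK2 sequence covers positions -60 to 10 (chr2:37156971-37157040, minus strand), and the EIF2AK3 sequence covers -250 to -1 (chr2:88627465-88627714, minus strand). The start that RefSeq's promoter entry uses for EIF2AK3 lies inside the gene's annotated span, which runs on to 88628145, so this window is upstream of that start and not of the outermost one; exons of longer transcripts were not examined. Capitals mark the core of the interferon-stimulated response element, GAAA, any 2 bases, GAAA, in EIF2AK2, and the CCAAT box, in either orientation, in EIF2AK3.
EIF2AK2: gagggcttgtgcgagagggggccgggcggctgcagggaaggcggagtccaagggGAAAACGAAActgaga
EIF2AK3: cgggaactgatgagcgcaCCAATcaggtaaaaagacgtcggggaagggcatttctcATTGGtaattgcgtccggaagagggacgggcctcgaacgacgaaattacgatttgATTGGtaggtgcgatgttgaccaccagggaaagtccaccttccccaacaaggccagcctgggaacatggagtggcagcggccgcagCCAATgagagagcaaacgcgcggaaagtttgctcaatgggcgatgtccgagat

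The EIF2AK2 match spans -6 to 4 and is the only such match among the 9 genes. Over 27305 RefSeq promoters of the same length, 1 per gene symbol, 996 (3.65%) hold one on either strand. EIF2AK3 has 4 CCAAT boxes, of which the box at -232 to -228 and the box at -53 to -49 read forward and those at -194 to -190 and -139 to -135 read in reverse. At least 1 CCAAT box stands in 35.7% of all promoters and at least 4 in 289 of them (1.06%). EIF2AK2 has 2, and EIF2B2, EIF2B3 and EIF2B4 have 1 each. The ER stress element is CCAAT, any 9 bases, CCACG (0.0806% of promoters). Neither it nor the C/EBP-ATF element TGATGNAA (3.67%) nor the cyclic AMP response element TGACGTCA (1.98%) was found in any window of the 9 genes. Both strands were searched, and EIF2B4 had more than 1 window. These are letter matches in a window, not measured binding sites.

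EIF2AK3, the PERK kinase of the ER membrane, was the member that varied most between states. Its mRNA and its ribosome footprints were lower in irradiated cells than in cycling or etoposide cells, and its mRNA was higher with thapsigargin. EIF2AK3 (ENSG00000172071) lies at chr2:88556741-88628145 on the minus strand of GRCh38.p14. Its RNA-seq level, in CPM after TMM scaling, was 32.6 and 35.8 in cycling cells, 35.4, 32.9 and 33.1 with etoposide, 14.9, 13.9 and 16.1 after irradiation, and 79.5 and 64.6 with thapsigargin. The 3 irradiated libraries lay below every cycling and etoposide library, and both thapsigargin libraries lay above all others. Quiescent libraries spread over 15.7, 23.7 and 35.0 CPM, which reaches from the irradiated to the cycling range. By state mean the order was thapsigargin, cycling, etoposide, quiescent and irradiated, with a 4.81-fold span; the cycling and etoposide libraries overlapped, and the quiescent ones overlapped with cycling, etoposide and irradiated.

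Against cycling cells, EIF2AK3 mRNA fell after irradiation by 1.19 ± 0.24 on the log2 scale (SE, n = 3 and 2 libraries), to 0.438 of the cycling level, with an adjusted p of 0.00158 by edgeR's quasi-likelihood test with Benjamini-Hochberg adjustment over 13291 genes. With etoposide the log2 difference was -0.01 (95% interval -0.52 to 0.49, adjusted p 0.969). The direct contrast of irradiated with etoposide cells was -1.18 ± 0.22 (adjusted p 0.00179), so the difference between the 2 senescent states was itself past the threshold. In quiescent cells the difference was -0.46 ± 0.24 (adjusted p 0.219). Without quiescent replicate 3, whose EIF2AK3 level was near that of cycling cells, it was -0.79 with an adjusted p of 0.0098. It passed in no other alternative. The quiescent library with MKI67 near the cycling level was replicate 2.

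Ribosome footprints on EIF2AK3 were also lowest after irradiation. They were 14.6, 16.3 and 16.3 CPM in cycling cells, 17.2, 18.1 and 17.0 with etoposide, and 6.14, 6.04 and 6.85 after irradiation. Irradiated cells again lay wholly below both. The counts behind the irradiated values were 16 to 35 per library, the smallest of any member. The log2 difference was -1.31 ± 0.34 against cycling cells (adjusted p 0.00791) and -1.45 ± 0.35 against etoposide cells (adjusted p 0.00933). Quiescent footprints were 5.07, 9.64 and 12.4 CPM, below all 3 cycling libraries, with a difference of -0.80 ± 0.29 and an adjusted p of 0.0688. That value passed in DESeq2 (adjusted p 0.0485), in a fit without the thapsigargin libraries (0.0254) and without quiescent Ribo-seq replicate 3 (-1.08, adjusted p 0.0174). No other alternative passed.

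With thapsigargin EIF2AK3 mRNA rose by 1.08 ± 0.26 (2.11-fold, n = 2 against 2, adjusted p 0.00882); without cycling replicate 1 the value was 1.01 with an adjusted p of 0.0736. Footprints were 38.1 and 16.2 CPM, from counts of 70 and 31, so that 1 library lay above and 1 within the cycling range. Their difference was 0.78 ± 0.36 (adjusted p 0.0897), and it was 1.29 without thapsigargin replicate 2 (adjusted p 0.0101). Translational efficiency, the footprint change over the mRNA change tested in 1 model of both assays, differed by -0.33 with a 95% interval of -1.21 to 0.56 (adjusted p 0.629), an interval too wide to place it.

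**Figure D1:**
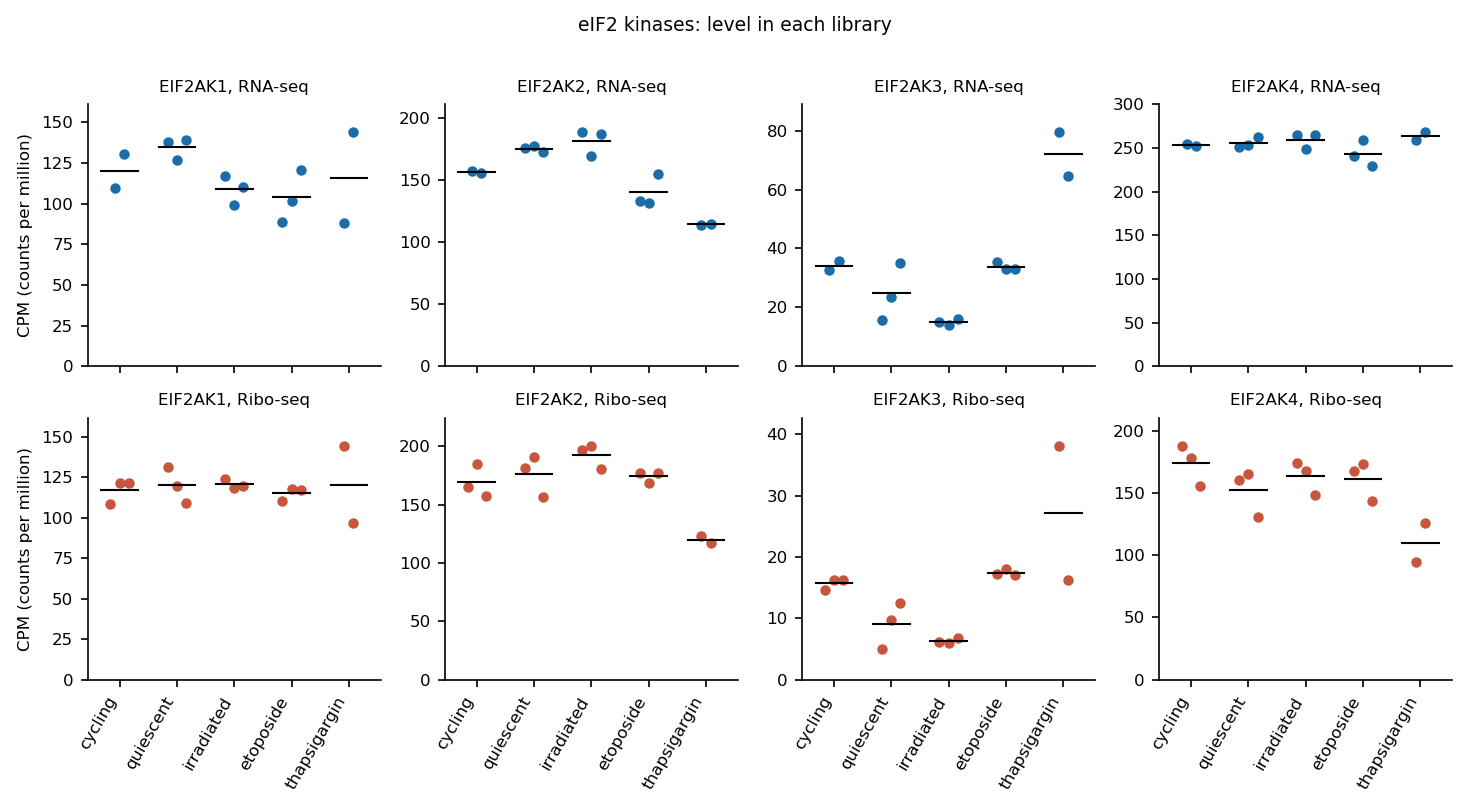
Levels of the 4 eIF2 kinases in CPM after TMM scaling (vertical axis, from 0) in the 5 states (horizontal axis), for RNA-seq and Ribo-seq. Points are libraries and black bars are state means; EIF2AK3 spans 4.81-fold in RNA-seq, against 1.08-fold for EIF2AK4.

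HSPA5 and DNAJC3, which encode the ER chaperone BiP that holds PERK inactive and the PERK inhibitor p58IPK, were the regulators with the largest changes between the senescent states. HSPA5 footprints were 1032, 1099 and 1139 CPM in cycling cells, 320, 369 and 320 after irradiation, and 1175, 1251 and 1113 with etoposide. DNAJC3 footprints were 49.2, 58.7 and 62.0 CPM in cycling cells, 23.5, 28.0 and 21.4 after irradiation, and 76.6, 83.1 and 77.8 with etoposide. For both genes the irradiated libraries lay below all cycling and all etoposide libraries. Irradiation lowered footprints relative to cycling cells by 1.70 ± 0.28 for HSPA5 (adjusted p 0.000314) and by 1.23 ± 0.27 for DNAJC3 (adjusted p 0.00272) on the log2 scale. Relative to etoposide cells, HSPA5 footprints were lower by a log2 difference of -1.81 ± 0.28 (adjusted p 0.000873) and mRNA by -1.56 ± 0.39 (adjusted p 0.012), and DNAJC3 by -1.71 ± 0.27 (adjusted p 0.00105) and -1.15 ± 0.22 (adjusted p 0.00233). Their mRNA differences from cycling cells, -1.05 for HSPA5 (adjusted p 0.072) and -0.60 for DNAJC3 (adjusted p 0.0699), did not pass the test. These comparisons share libraries with those of EIF2AK3, so the values stand side by side as description.

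In quiescent cells, replicate 1 was lowest for all 3 genes in both assays. Its footprints were 291 CPM for HSPA5 and 16.8 for DNAJC3, against 740 and 891 and 39.7 and 41.5 in the other replicates. DNAJC3 footprints fell in quiescent cells by 0.80 ± 0.25 (adjusted p 0.0349), a call lost without cycling replicate 2 or 3, while HSPA5 differed by -0.77 (adjusted p 0.0566). With thapsigargin DNAJC3 mRNA rose by 1.41 ± 0.27 (adjusted p 0.00216), from 85.1 and 84.1 to 261 and 190 CPM. Footprints of DNAJC3 were higher by 0.77 ± 0.29 (adjusted p 0.0434) and of HSPA5 by 0.87 ± 0.29 (adjusted p 0.0279), and each call was lost without any 1 of cycling replicates 1 and 2 or either thapsigargin library.

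**Figure D2:**
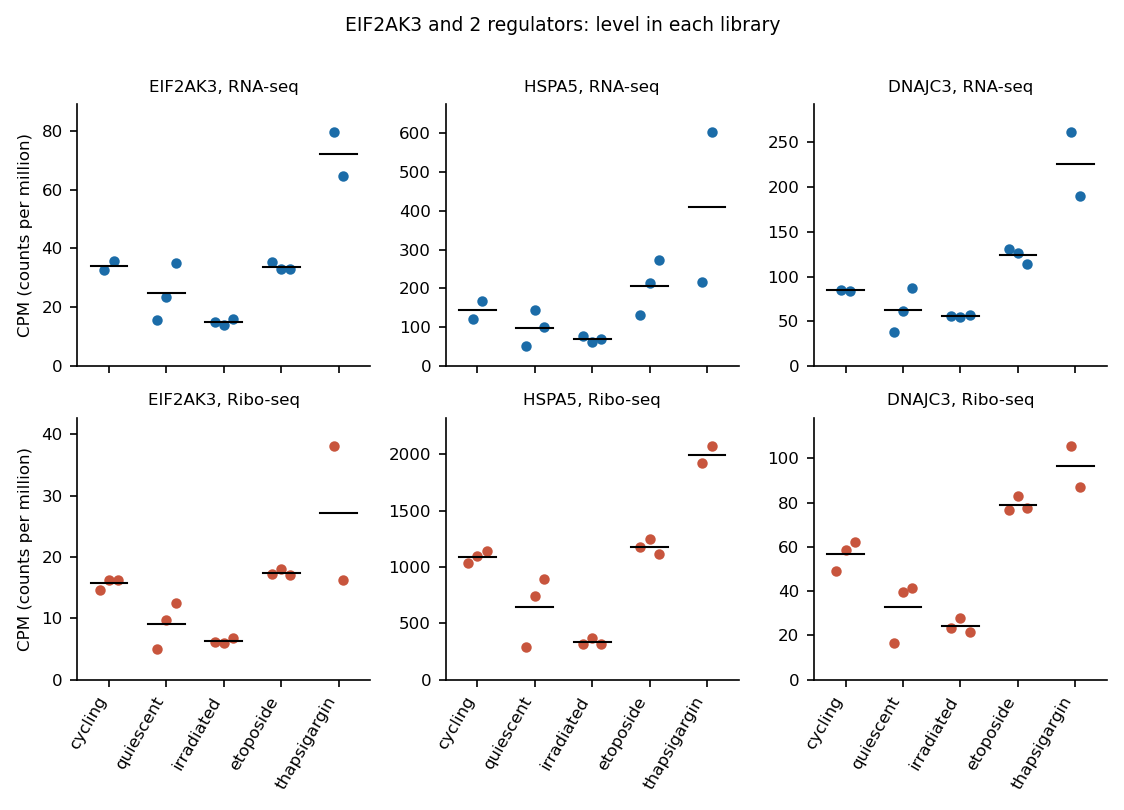
EIF2AK3 beside HSPA5 and DNAJC3 in CPM after TMM scaling (vertical axes, linear from 0) by state, in RNA-seq and Ribo-seq; points are libraries and black bars are state means. In all 3 genes the irradiated libraries lie below the etoposide libraries in both assays.

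EIF2AK2, the double-stranded RNA sensor PKR and itself an interferon-stimulated gene, moved over a narrower range, with its lowest levels under thapsigargin. The gene (ENSG00000055332) lies at chr2:37099210-37156980 on the minus strand. Its mRNA was at 157 and 156 CPM in cycling cells and 114 and 115 with thapsigargin. Quiescent libraries had 176, 177 and 173 CPM, irradiated ones 188, 170 and 187, and etoposide ones 133, 132 and 155. Thapsigargin lay below every other state, and irradiated lay above etoposide without overlap. The order of the means was irradiated, quiescent, cycling, etoposide and thapsigargin, and of these neighbours only irradiated and quiescent overlapped.

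With thapsigargin, EIF2AK2 mRNA fell by 0.45 ± 0.11 (adjusted p 0.0112) and footprints fell by 0.50 ± 0.11 (adjusted p 0.00345), from 165, 185 and 158 CPM to 123 and 117. The mRNA call was lost without cycling replicate 1 (adjusted p 0.0659) or 2 (0.0624) and in a fit of the 2 states alone (0.116). The change in translational efficiency was -0.07. Between the senescent states, irradiated cells had 1.30-fold more EIF2AK2 mRNA than etoposide cells, a log2 difference of 0.38 ± 0.09 (adjusted p 0.0103); it was past 0.05 without etoposide replicate 2 (0.0598) or irradiated replicate 1 (0.0503). Footprints were 197, 201 and 181 CPM after irradiation and 177, 168 and 177 with etoposide, a difference of 0.14 (adjusted p 0.346). Neither senescent state differed from cycling cells past the threshold, at 0.22 ± 0.10 for irradiation (adjusted p 0.125) and -0.16 for etoposide (adjusted p 0.25) in RNA-seq.

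Other interferon-stimulated genes were counted from a list of 25, of which 23 could be tested in RNA-seq and 20 in Ribo-seq. With thapsigargin, 1 rose and 7 fell in RNA-seq (24.5% of all genes were called; median log2 change -0.40, all genes -0.03), and 1 rose and 7 fell in Ribo-seq (44.4%; median -1.05, all genes -0.11). IFIT1, which binds foreign RNA ends, fell by 2.15 in RNA-seq (adjusted p 0.00139), from 12.7 and 20.2 to 4.83 and 2.62 CPM, and IFITM1, a membrane protein that blocks virus entry, fell by 1.83 (adjusted p 0.000234). After irradiation 8 rose and 3 fell in RNA-seq (34.9% of all genes were called; median 0.47, all genes 0.03), and with etoposide 7 rose and 3 fell (34.5%; median -0.04, all genes 0.00).

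EIF2AK4, the amino acid sensor GCN2, was the steadiest member in RNA-seq and was lowest in Ribo-seq under thapsigargin. EIF2AK4 (ENSG00000128829) lies at chr15:39934115-40035591 on the plus strand. Its mRNA was between 229 and 268 CPM in all 13 libraries, with a 1.08-fold span between state means, and no comparison passed the test. Footprints were 188, 178 and 155 CPM in cycling cells and 94.3 and 126 with thapsigargin, below all 12 other libraries, whose lowest value was 131. They fell by 0.66 ± 0.16 (adjusted p 0.00402), to 0.633 of the cycling level. Translational efficiency fell by 0.74 ± 0.20 (95% interval -1.16 to -0.31, adjusted p 0.0133), and without thapsigargin Ribo-seq replicate 1 it differed by -0.56 (adjusted p 0.0735).

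EIF2AK1, the heme-regulated kinase HRI, did not pass the test in any comparison. EIF2AK1 (ENSG00000086232) lies at chr7:6022247-6059175. AIMP2 overlaps 1588 bases of it, and ANKRD61 lies within it over 5177 bases. Its mRNA was 138, 127 and 139 CPM in quiescent cells, 117, 99.1 and 110 after irradiation and 89.0, 102 and 121 with etoposide. Every quiescent library lay above every senescent one, a difference of -0.34 ± 0.14 for senescence against quiescence (adjusted p 0.0788). It passed in a fit without the thapsigargin libraries (adjusted p 0.0206) and in a fit of those states alone (0.029). It also passed without etoposide replicate 3 (0.0495), and in no other of the 17 alternatives. The thapsigargin libraries, at 87.8 and 144 CPM, held the lowest and the highest value of all 13, and cycling cells had 109 and 131. Footprints had a 1.05-fold span between state means. For 9 members at most 6.44% of the reads on a gene fell on the opposite strand, but for EIF2AK1 this share was 11.9 to 60.7%; those reads are not in the counts used here.

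For each kinase, the 3 genes with the most similar pattern were found by Pearson r of log2 CPM over the 13 RNA-seq libraries, among 13290 other genes. For EIF2AK3 they were FZD8, a WNT receptor (r = 0.983), TMEM39A, an ER membrane protein (0.981), and IL11, a cytokine (0.978). For EIF2AK2 they were MBTD1 (0.975), NBPF10 (0.973) and ZCCHC24 (0.973), for EIF2AK1 PHF12 (0.920), U2AF1 (0.892) and SAFB (0.888), and for EIF2AK4 GARRE1 (0.747), RNF169 (0.730) and PTPN21 (0.726). EIF2AK2 and EIF2AK3 ran opposite to each other (r = -0.87). All these values share the same libraries, depth and scaling, and the thapsigargin libraries are the extreme points for EIF2AK2 and EIF2AK3.

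EIF2S1, the eIF2 alpha subunit that all 4 kinases phosphorylate, had overlapping mRNA levels in cycling and thapsigargin cells but more footprints with thapsigargin. EIF2S1 (ENSG00000134001) lies at chr14:67360328-67386516 on the plus strand, inside the span of GPHN on the same strand. Its RNA-seq level was 162 and 142 CPM in cycling cells and 183 and 153 with thapsigargin, ranges that overlap. Quiescent, irradiated and etoposide libraries lay between 149 and 171 CPM, and the state means had a 1.10-fold span. Footprints were 208, 211 and 215 CPM in cycling cells and 311 and 381 with thapsigargin, above all 12 other libraries, whose highest value was 247.

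EIF2S1 footprints rose with thapsigargin by 0.71 ± 0.11 (1.64-fold, adjusted p 0.000179), while its mRNA differed by 0.14 (95% interval -0.12 to 0.41, adjusted p 0.428). Translational efficiency rose by 0.54 ± 0.18 (adjusted p 0.0342). The footprint call held in all 12 alternatives run, and the efficiency call in 11 of 18. Among the fits that lost it were edgeR with a block for libraries of 1 state and number (adjusted p 0.0845). Another was the fit of the 2 states alone (0.169). In the senescent states EIF2S1 footprints were 189, 203 and 188 CPM after irradiation and 209, 201 and 197 with etoposide, against 233, 247 and 203 in quiescent cells. That difference was -0.20 ± 0.08 (adjusted p 0.0858). It passed without quiescent Ribo-seq replicate 3, the lowest of them (-0.28, adjusted p 0.024), and in a fit without thapsigargin (0.0391). It also passed without the filter on low counts (0.0299) and in a fit of those states alone (0.0341), and in no other alternative.

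eIF2B, the exchange factor that recharges eIF2, has a regulatory core of the alpha, beta and delta subunits, encoded by EIF2B1, EIF2B2 and EIF2B4, and a catalytic part of the gamma and epsilon subunits, encoded by EIF2B3 and EIF2B5, of which epsilon carries the exchange activity. None of the 5 passed the test in quiescent, irradiated or etoposide cells against cycling cells, in either assay. In RNA-seq the 95% intervals of the 5 log2 differences lay within -0.52 to 0.45 for quiescence, -0.57 to 0.41 for irradiation and -0.44 to 0.65 for etoposide. In Ribo-seq they lay within -0.58 to 0.43, -0.61 to 0.44 and -0.65 to 0.39. Changes of 2-fold (1 on the log2 scale) therefore fell outside each of these intervals.

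**Figure D3:**
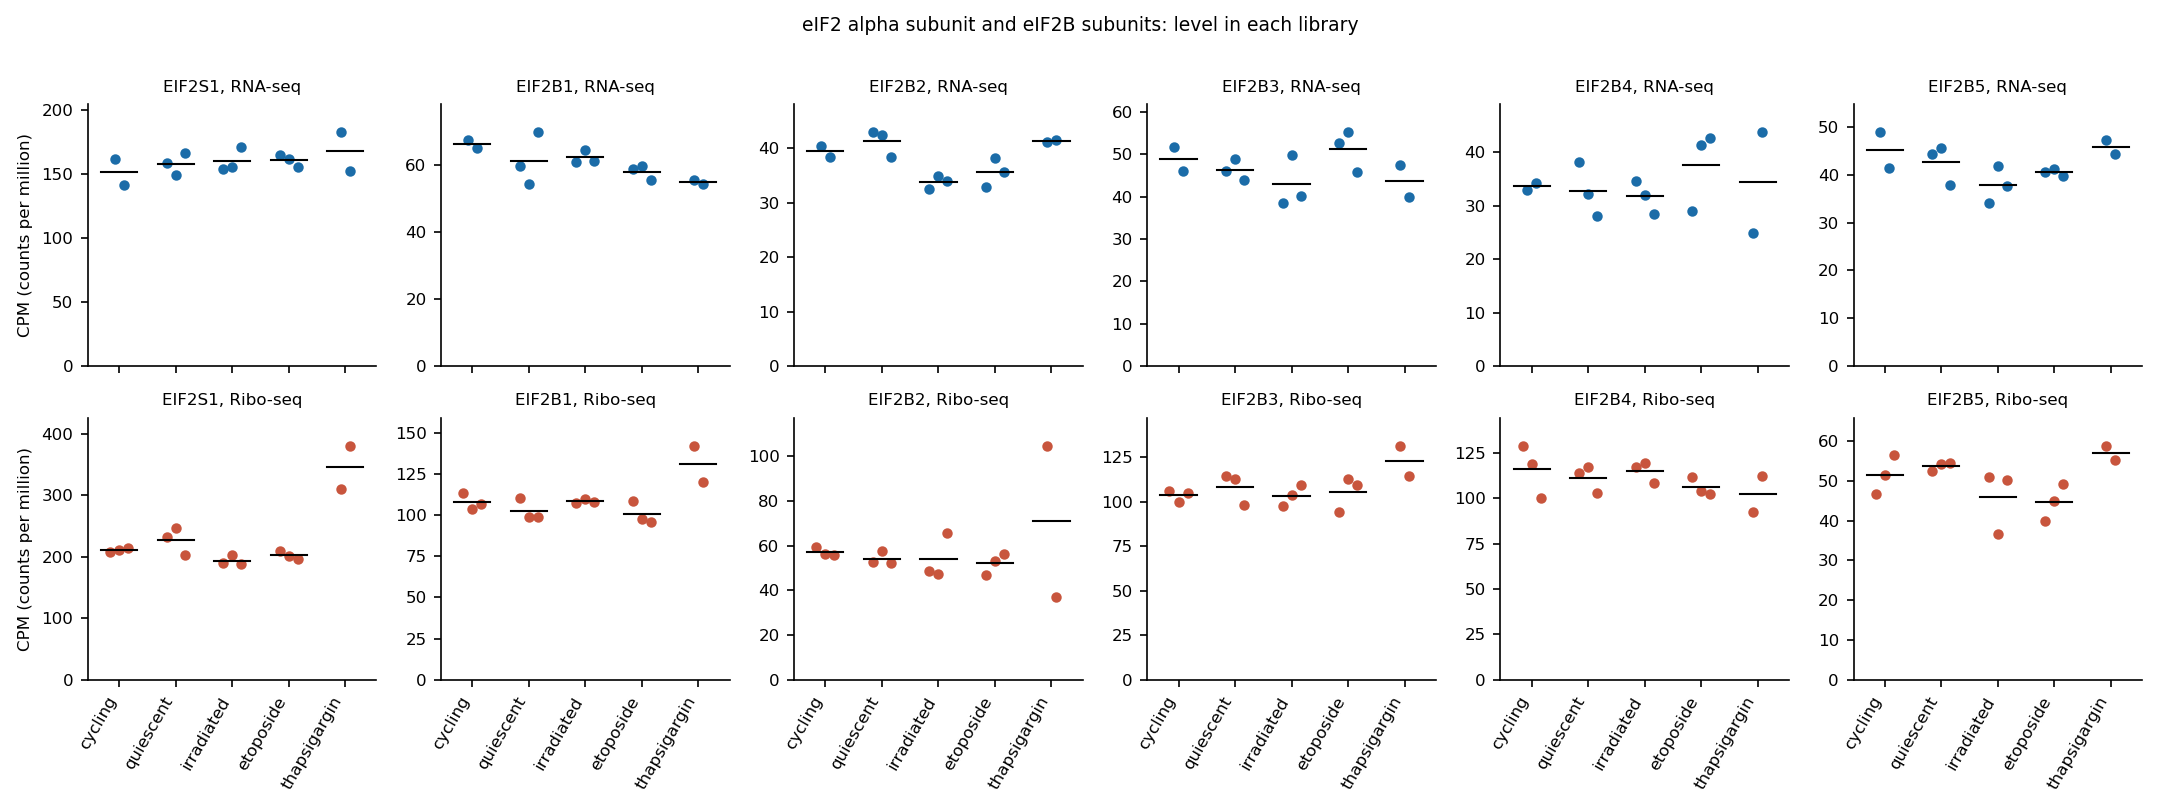
Levels of EIF2S1 and the 5 eIF2B subunits in CPM after TMM scaling (vertical axes, from 0) by state, in RNA-seq and Ribo-seq; points are libraries and black bars are state means. The thapsigargin footprints of EIF2S1, 311 and 381 CPM, lie above all others, and the 2 thapsigargin footprint values of EIF2B2 lie on either side of the other libraries.

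EIF2B2 (ENSG00000119718, chr14:75002921-75012366, plus strand) was the only eIF2B gene to pass the test between senescence and quiescence, in RNA-seq. Its mRNA was 42.9, 42.5 and 38.5 CPM in quiescent cells, 32.6, 34.9 and 34.0 after irradiation and 33.0, 38.3 and 35.7 with etoposide. All 6 senescent libraries lay below the quiescent ones, with a log2 difference of -0.25 ± 0.09 (95% interval -0.44 to -0.06, adjusted p 0.0395). The call held in 6 of 17 alternatives, with adjusted p up to 0.139. No eIF2B gene passed in Ribo-seq. EIF2B5 footprints in senescent cells, at most 51.1 CPM, all lay below the quiescent ones of 52.4, 54.2 and 54.5. EIF2B2 footprints with thapsigargin were 105 and 37.0 CPM against 59.2, 56.2 and 55.6 in cycling cells. The 2 libraries lay on opposite sides of the cycling range, and the difference of 0.31 ± 0.28 (adjusted p 0.395) became 0.89 (adjusted p 0.00132) without thapsigargin replicate 2 and -0.63 (adjusted p 0.0274) without replicate 1.

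EIF2B1 (ENSG00000111361, chr12:123620406-123633686, minus strand) was the one eIF2B gene with a changed translational efficiency under thapsigargin. Its mRNA was 67.5 and 65.1 CPM in cycling cells and 55.6 and 54.3 with thapsigargin, and its footprints were 114, 104 and 107 CPM and 142 and 120. The groups did not overlap in either assay and lay in opposite order. Neither layer passed alone, at -0.27 ± 0.13 for mRNA (adjusted p 0.142) and 0.28 ± 0.11 for footprints (adjusted p 0.0525), but translational efficiency rose by 0.52 ± 0.18 (adjusted p 0.0436), a call that held in 10 of 18 alternatives. Among the fits that lost this EIF2B1 call were edgeR with a block for libraries of 1 state and number (adjusted p 0.0869). Another was the fit of the 2 states alone (0.168). EIF2B4 (ENSG00000115211, chr2:27364352-27370338, minus strand) ranged from 25.0 to 43.8 CPM in RNA-seq, and both extremes were thapsigargin libraries.

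In neither catalytic subunit did footprints with thapsigargin pass the test. EIF2B3 (ENSG00000070785, chr1:44850522-44986595, minus strand) had footprints of 131 and 114 CPM with thapsigargin and 106, 99.7 and 105 in cycling cells, a difference of 0.25 (adjusted p 0.106). EIF2B5 (ENSG00000145191, chr3:184135358-184145311, plus strand) had 58.8 and 55.3 against 46.6, 51.4 and 56.5, a difference of 0.15 (adjusted p 0.473). State means of the 5 eIF2B mRNAs spanned 1.19-fold to 1.22-fold. Over the 13 RNA-seq libraries the closest pair among all members was EIF2B2 with EIF2B5 (r = 0.78).

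Counted over all 10 genes, at most 2 members passed in any RNA-seq comparison, and the share of all genes is given beside each count. In RNA-seq, 0 passed in quiescent cells (edgeR; 0 at an unadjusted p under 0.05, 0 in DESeq2), where 15.6% of all genes did. After irradiation 1 member passed, EIF2AK3, against 34.9% of all genes. With etoposide 0 passed (0 at an unadjusted p under 0.05, 0 in DESeq2), against 34.5%. Between senescence and quiescence 1 passed, EIF2B2 (34.2% of all genes), and between irradiated and etoposide cells 2 passed, EIF2AK2 and EIF2AK3 (22.6%). With thapsigargin 2 passed, EIF2AK2 and EIF2AK3 (24.5%). The median log2 change of the members was -0.11 after irradiation and -0.10 with etoposide, beside 0.03 and 0.00 over all genes tested.

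In Ribo-seq, EIF2AK4 and EIF2S1 were called beside EIF2AK2 and EIF2AK3, and EIF2B2 was not. In quiescent cells 0 members passed in edgeR (1 at an unadjusted p under 0.05 and 1 in DESeq2, EIF2AK3), where 21.7% of all 11764 genes did. After irradiation 1 passed, EIF2AK3 (39.8% of all genes), and etoposide 0 (0 at an unadjusted p under 0.05, 0 in DESeq2; 34%). Senescence against quiescence gave 0 (1 at an unadjusted p under 0.05, 0 in DESeq2; 26%), and irradiated against etoposide 1, EIF2AK3 (21.7%). With thapsigargin 3 passed, EIF2AK2, EIF2AK4 and EIF2S1 (44.4%), with a member median of 0.20 beside -0.11 over all genes.

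In translational efficiency, 3 members passed with thapsigargin, EIF2AK4, EIF2B1 and EIF2S1, where 20.8% of 11713 genes passed; the member median was 0.08 beside -0.15. In the other 5 comparisons edgeR called 0 members. Unadjusted p was under 0.05 for 0 members in quiescence, irradiation and etoposide against cycling cells, for 1 in senescence against quiescence and for 2 in irradiated against etoposide cells, and DESeq2 called 0 in each. Over all genes these comparisons gave 0.00854%, 0.0512%, 0.0683%, 0.0427% and 0% in the same order, so almost no gene passed there, member or not. Scaling sets the average change of a library near 0, and in bulk samples fewer cells with a transcript and less of it per cell cannot be told apart.

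**Figure D4:**
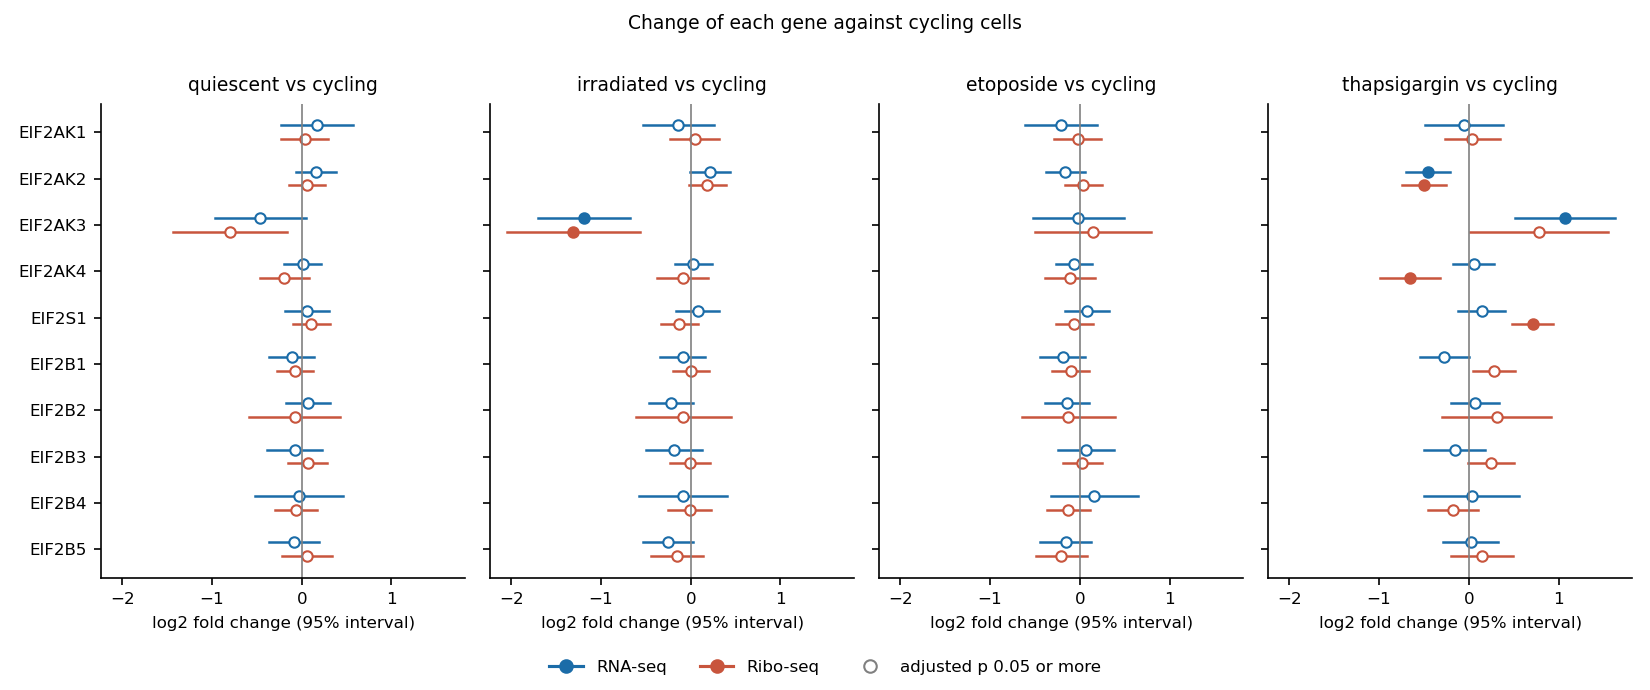
Log2 fold changes against cycling cells for the 10 genes (rows) in the 4 other states, for RNA-seq and Ribo-seq, with 95% intervals; filled points have an adjusted p under 0.05 by edgeR. EIF2AK3 is lower after irradiation in both assays (-1.19 and -1.31), and the eIF2B genes lie near 0 outside thapsigargin.

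**Figure D5:**
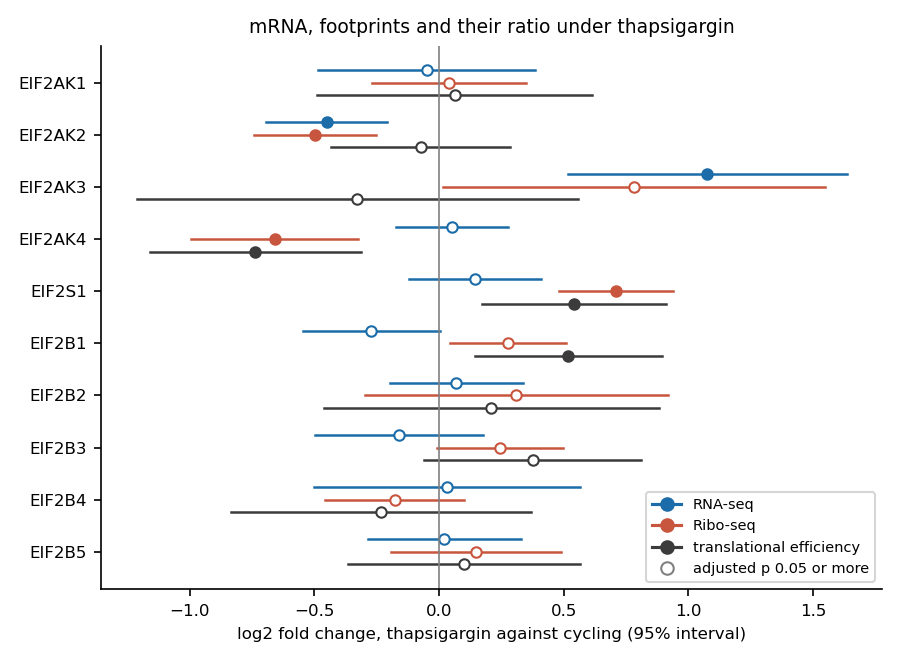
Log2 change with thapsigargin against cycling cells for the 10 genes, as mRNA, footprints and translational efficiency, each with its 95% interval. EIF2S1 and EIF2B1 have positive efficiency changes (0.54 and 0.52) and EIF2AK4 a negative one (-0.74).

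The other subunits and partners of eIF2 were followed in a list of 13 initiation factors. With etoposide 6 fell and 0 rose in RNA-seq (34.5% of all genes were called; median -0.23, all genes 0.00), and with thapsigargin 1 rose and 4 fell (24.5%; median -0.28, all genes -0.03). EIF2S3, the GTP-binding gamma subunit, fell with etoposide by 0.52 ± 0.12 (adjusted p 0.00404) and with thapsigargin by 0.67 ± 0.13 (adjusted p 0.00288): cycling libraries had 606 and 597 CPM, etoposide ones 416, 414 and 426, and thapsigargin ones 407 and 352. Its footprints with thapsigargin, 183 and 181 CPM, overlapped with the cycling values of 183, 187 and 181, a difference of -0.02 (adjusted p 0.877). Translational efficiency of EIF2S3 rose by 0.62 ± 0.16 (adjusted p 0.00882). EIF2S2, the beta subunit, had an efficiency change of 0.92 ± 0.28 (adjusted p 0.023), which was lost without cycling RNA-seq replicate 1, thapsigargin RNA-seq replicate 2 or thapsigargin Ribo-seq replicate 2. Near-identical copies exist for EIF2S2 and EIF2S3, and reads that map to several places are not in the counts, so their levels are uncertain.

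Under thapsigargin 4 of the 13 partners rose and 3 fell in Ribo-seq (44.4% of all genes were called), and 3 rose and 0 fell in translational efficiency (20.8%; median 0.32, all genes -0.15). EIF2A, a separate factor that can deliver initiator tRNA, had footprints of 89.4, 96.7 and 93.8 CPM in cycling cells and 199.95 and 193 with thapsigargin, a rise of 1.07 ± 0.12 (adjusted p 1.52e-05), and its efficiency rose by 1.28 ± 0.23 (adjusted p 0.000568). EIF1, which guards start codon choice, rose by 1.29 ± 0.12 in footprints (adjusted p 3.66e-06), from 501, 556 and 609 to 1319 and 1399 CPM. It also rose after irradiation, by 0.55 (adjusted p 0.00137). EIF2D, a factor of reinitiation, fell by 1.22 in footprints with thapsigargin (adjusted p 0.0194), a call lost without thapsigargin replicate 1 (-0.48).

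The phosphatase that removes the phosphate from eIF2 alpha was described by 5 genes, the regulatory subunits PPP1R15A (GADD34) and PPP1R15B (CReP) and 3 catalytic subunits of protein phosphatase 1. After irradiation 1 rose and 3 fell in each assay, with a median log2 change of -0.53 in RNA-seq (all genes 0.03), and with etoposide 1 rose and 3 fell in each assay; the shares of all genes called were 34.9% and 39.8% after irradiation and 34.5% and 34% with etoposide, in RNA-seq and Ribo-seq. PPP1CC fell after irradiation by 0.76 (adjusted p 0.000152) and with etoposide by 1.03 (adjusted p 1.06e-05) in RNA-seq, from 291 and 293 CPM in cycling cells to 161, 174 and 182 and to 145, 141 and 142. PPP1R15B, the constitutive regulatory subunit, fell by 0.53 after irradiation (adjusted p 0.0101) and by 0.51 with etoposide (adjusted p 0.0128); both calls were lost without cycling replicate 2, and the second also without cycling replicate 1. PPP1R15A, the stress-induced regulatory subunit, was the 1 gene that rose in both senescent states and both assays. Its mRNA rose with etoposide by 0.52 (adjusted p 0.00205). Its footprints rose by 0.59 after irradiation (adjusted p 0.0304) and by 0.56 with etoposide (adjusted p 0.04).

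With thapsigargin the largest change of this list was in PPP1R15A. Its mRNA went from 109 and 107 to 500 and 582 CPM, a rise of 2.33 ± 0.12 (adjusted p 9.65e-08), and its footprints went from 56.6, 39.9 and 67.0 to 1182 and 1051, a rise of 4.36 ± 0.23 (adjusted p 2.29e-08). Translational efficiency rose by 2.01 ± 0.26 (adjusted p 1.33e-05). PPP1R15B footprints also rose, by 0.85 ± 0.17 (adjusted p 0.00137), from 73.8, 67.6 and 76.3 to 134 and 127 CPM.

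Among 15 regulators of the kinases, which include HSPA5 and DNAJC3 above, 1 rose and 0 fell after irradiation in RNA-seq (34.9% of all genes were called), and 3 rose and 3 fell in Ribo-seq (39.8%). IMPACT, which competes for the GCN2 activator GCN1, rose after irradiation by 0.47 in mRNA (adjusted p 0.0154) and 0.60 in footprints (adjusted p 0.00614), from 26.1, 34.3 and 28.2 to 49.5, 42.3 and 42.3 CPM. The mRNA call was lost without cycling replicate 1 or 2 or irradiated replicate 3. With thapsigargin 2 rose and 1 fell in RNA-seq (24.5%), and 5 rose and 4 fell in Ribo-seq (44.4%). HSP90AA1, a chaperone of several kinases, rose by 0.97 in footprints (adjusted p 0.000105).

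The ISR list of 17 genes holds ATF4 and genes known as targets of the response. With thapsigargin 10 rose and 0 fell in RNA-seq (24.5% of all genes were called; median 0.87, all genes -0.03), and 9 rose and 1 fell in Ribo-seq (44.4%; median 1.05, all genes -0.11). DDIT3 (CHOP) rose by 3.44 ± 0.16 in mRNA (adjusted p 6.29e-08), from 41.5 and 39.6 to 496 and 383 CPM, and by 5.15 ± 0.25 in footprints (adjusted p 9.81e-09). ATF4, the transcription factor of the response, had a translational efficiency higher by 0.75 ± 0.18 (adjusted p 0.00569), with footprints of 179, 174 and 205 CPM in cycling cells and 471 and 602 with thapsigargin.

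In quiescent and senescent cells genes of the list moved in both directions. After irradiation 6 rose and 2 fell in RNA-seq (34.9% of all genes were called; median 0.15, all genes 0.03), with etoposide 4 rose and 3 fell (34.5%; median -0.10, all genes 0.00), and in quiescent cells 5 rose and 1 fell (15.6%; median 0.27, all genes 0.02). In Ribo-seq 9 rose and 3 fell after irradiation (39.8% of all genes were called, median 0.48, all genes -0.01). With etoposide 4 footprint levels rose and 5 fell (34%, median 0.11, all genes -0.01). Quiescent cells had 7 higher and 2 lower in Ribo-seq (21.7%, median 0.57, all genes 0.02). ATF4 footprints rose after irradiation and fell with etoposide. The mRNA of ATF3, a stress-induced transcription factor, rose by 1.41 ± 0.15 after irradiation (adjusted p 1.02e-05) and by 1.95 ± 0.15 with etoposide (adjusted p 4.00e-07). In the direct contrast of irradiated with etoposide cells 9 were higher and 3 lower in RNA-seq (22.6% of all genes were called; median 0.42, all genes 0.06), among them TRIB3, a pseudokinase induced by CHOP, by 1.11 ± 0.12 (adjusted p 7.60e-05): 158, 190 and 177 CPM after irradiation and 71.8, 78.0 and 93.6 with etoposide. EIF2AK3 was lower in the same contrast, as given above.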

How the data were processed

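Counts per gene were deposited by the authors in the layout of STAR's gene count output, and the submitters' processing notes name STAR 2.7.10b, bcl2fastq, DESeq2 1.36.0 and the build hg38, with no role or order; trimming, annotation and alignment settings are not given in the sources used here. Groups came from sample titles; 1 other label calls all thapsigargin libraries protected fragments. The column for the strand with most reads was used in each assay; 3.55 to 10.6% of counts lay on the other strand. Thapsigargin Ribo-seq and all RNA-seq files list 62703 identifiers and the other 12 Ribo-seq files 60664; the 60534 in both were used and hold at least 99.6% of counts. Protein-coding genes (RefSeq) that passed filterByExpr were tested with edgeR 4.0.16 (R 4.3.3): TMM scaling, robust quasi-likelihood fit over all 5 states per assay, F test, Benjamini-Hochberg adjustment, threshold 0.05. Translational efficiency was the interaction of library type and state over 27 libraries. Intervals are 95%, and ± is the SE.

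The members and lists were chosen with earlier results of these data known. The rule allows all 10 members, up to 3 called genes of largest change per list and comparison, the 3 genes most like each kinase, and MKI67, LMNB1, CDKN1A and CDKN2A as label checks; markers at 0 were named after their values were seen. Only some of the genes the rule allows are printed. Levels per coding length were planned, but no coding lengths were used, so levels are not compared between genes. Replicates of a group differed by more than counting noise (chi-square per degree of freedom 1.90 to 120 over 24 pairs). The scripts were tested on simulated counts. Alternatives were DESeq2 1.42.0, RLE scaling, no filter, all biotypes, unstranded counts, a fit of the compared states alone, a replicate block, each library left out, and, added after seeing the data, a fit without thapsigargin and TMM within each library type.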

Additional observations from a re-analysis of the deposited data

Results flagged for a closer look

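The senescent states differed from each other in EIF2AK3, the ER stress kinase: the direct contrast of irradiated with etoposide cells was -1.18 in RNA-seq (adjusted p 0.00179) and -1.45 in Ribo-seq (adjusted p 0.00933), by edgeR's quasi-likelihood test, and each held in 14 of 14 alternatives. All 3 irradiated libraries lay below all 3 etoposide libraries in both assays. EIF2AK2, the double-stranded RNA sensor, differed the other way, by 0.38 in RNA-seq (adjusted p 0.0103), a call that held in 12 of 14 alternatives.

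On EIF2AK1, reads on the strand opposite to the counted one reached 60.7% of a library's reads at the gene, above the 6.44% that was the highest for the other 9 members. AIMP2 overlaps 1588 bases of EIF2AK1 and ANKRD61 5177 bases.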

How the results depend on the processing

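Of the 14 calls on members, 7 held under every alternative run: EIF2AK3 after irradiation and between the senescent states in both assays, and EIF2AK2, EIF2AK4 and EIF2S1 footprints with thapsigargin. Of 236 calls on named list genes, 143 held throughout and 0 reversed. Over members, 2 values reversed with a call: EIF2B2 with thapsigargin without Ribo-seq replicate 1, at -0.63 in footprints and -0.74 in translational efficiency (adjusted p 0.0361); without replicate 2 these were 0.89 and 0.74.

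In RNA-seq, the members called moved with thapsigargin from 2 to 1 in a fit of the 2 states alone and 0 to 2 with a library left out, in quiescence from 0 to 0 to 1 with a library left out, between the senescent states 1 to 2, and for senescence against quiescence from 1 to 2 without thapsigargin, 0 without a filter, 0 with RLE scaling, 0 with the replicate block and 0 to 1 with a library left out. In Ribo-seq, the count rose in quiescence from 0 to 1 with DESeq2, 1 without thapsigargin and 0 to 1 with a library left out; after irradiation from 1 to 2 with DESeq2, which added EIF2AK2; and for senescence against quiescence from 0 to 1 without thapsigargin, without a filter and in a fit of those states alone, and 0 to 1 with a library left out. With thapsigargin the 3 Ribo-seq calls held in every alternative (44.4% of all genes passed in the main fit). DESeq2 added EIF2B1, and unstranded counts added EIF2AK3. Without thapsigargin Ribo-seq replicate 2, which leaves 1 library, EIF2AK3, EIF2B1, EIF2B2 and EIF2B3 differed by 1.29, 0.41, 0.89 and 0.36. Without replicate 1, EIF2B2 differed by -0.63. In translational efficiency with thapsigargin the 3 calls became 1 with all biotypes, 1 without a filter, 1 with the replicate block by state and number, 0 in a fit of the 2 states alone and 1 to 3 with a library left out.

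Over all genes, RNA-seq calls fell in quiescence from 2068 to 853 in a fit of the 2 states alone and to 707 without cycling replicate 1, after irradiation from 4643 to 2777 and with etoposide from 4591 to 2612 without it, with thapsigargin from 3256 to 1507 in a fit of the 2 states alone, and between the senescent states from 2999 to 1841 without etoposide replicate 2. Ribo-seq calls moved in quiescence from 2556 to 1558 without cycling replicate 3, with etoposide from 4000 to 6021 and between the senescent states from 2551 to 4134 in a fit of the states compared alone. Translational efficiency calls moved in quiescence from 1 to 6 with DESeq2, after irradiation from 6 to 760 in a fit of the 2 states alone, with etoposide from 8 to 40 with DESeq2, for senescence against quiescence from 5 to 38 with DESeq2, between the senescent states from 0 to 606 in a fit of the 2 alone, and with thapsigargin from 2432 to 1053 in such a fit and to 3770 without Ribo-seq replicate 2. TMM within each library type shifted the all-gene median of translational efficiency by -0.104 in quiescence, -0.101 after irradiation and -0.130 between the senescent states. The cause of these moves was not tested.

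Samples share only a replicate number. After each gene's state mean was subtracted, same-numbered libraries of different states had correlations of -0.374 to 0.696 (median 0.027, 17 of 49 above 0.1). In a state with 2 libraries these deviations mirror each other, so its pairs are not independent. On the same deviations, 6 of 9 RNA-seq libraries correlated best with the Ribo-seq library of their own state and number. Those 9 came from the states with 3 libraries in both assays. Footprint counts of 16 to 70 limit EIF2AK3 in irradiated and thapsigargin cells.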
